A study of Mus musculus with 8 samples.

Results

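The 38 genes described here act in late G2 and in mitosis: mitotic kinases and cyclins, spindle, kinetochore and cytokinesis proteins. They were chosen by symbol, as a list of genes with these roles, and are 38 of the 52459 gene symbols in the count table. RNA was sequenced from lung tumour nodules of mice engineered to form such tumours, on a mixed background. There were 4 groups of 2 libraries: anti-PD-1 antibody with JQ1 (the combination), JQ1 alone, anti-PD-1 antibody alone, and vehicle. JQ1 is a small molecule that keeps BET bromodomain proteins off acetylated histones. The antibody blocks PD-1, a receptor that restrains T cells. All 8 libraries share the tumour model, so no normal lung is among the controls, and the Cre driver, the doses, the length of treatment and the age of the mice are given in none of the sources used. Of the 38 genes, 33 had enough counts to test, and Cdc25c, Ttk, Aurkb, Birc5 and Hmmr did not.

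Entry into mitosis is driven by CDK1 with cyclins A and B, which are switched on by CDC25 phosphatases and by Polo-like and Aurora kinases. Kinetochore proteins then tie chromosomes to spindle microtubules, kinesins move and shape the spindle, the checkpoint holds back anaphase until every chromosome is attached, and a contractile ring divides the cell. Transcripts of these genes build up in G2 and fall after division, so in tissue they mark cycling cells, and in lung tumours MKI67 and TOP2A are in common use as such markers. In whole tissue, fewer dividing cells and less RNA per dividing cell cannot be told apart.

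Promoters of mitotic genes are known for CCAAT boxes, bound by the factor NF-Y, and for the cell cycle genes homology region (CHR), bound by the DREAM and MuvB-FOXM1 complexes. RefSeq promoter windows on GRCm38.p6, from 250 bases before to 50 bases after the transcript start, were matched by symbol for 31 of the 38 genes. The letters CCAAT, searched on both strands, stood in 24 of the 31 (77.4%), against 41.1% of 27025 genes. The letters TTTGAA or TTCGAA, the CHR core, on either strand, stood in 26 of the 31 (83.9%), against 21.7% of all genes. Within 50 bases of the start the CHR letters were found in 24 of the 31 (77.4%), against 6.12% of all genes, and 20 (64.5%) held both motifs near the start, against 1.58%. A gene with more than 1 window was counted once if any window held the motif, which applied to 2 of the 31 and to 15.4% of all genes. In the windows of the 38 genes, 1 pair of matches of the different motifs shared bases. The stretches below run from 100 bases before to 50 bases after the start, for the 4 genes that passed a test in these tumours and for the proliferation markers Top2a and Mki67. They are written along the transcript, with matches to either motif in capitals.
Plk1, chr7:122159335-122159484, plus strand: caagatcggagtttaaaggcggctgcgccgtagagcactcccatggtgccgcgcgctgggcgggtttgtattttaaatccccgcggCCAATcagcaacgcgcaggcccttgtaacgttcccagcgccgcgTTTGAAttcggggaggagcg
Kif23, chr9:61946750-61946899, minus strand: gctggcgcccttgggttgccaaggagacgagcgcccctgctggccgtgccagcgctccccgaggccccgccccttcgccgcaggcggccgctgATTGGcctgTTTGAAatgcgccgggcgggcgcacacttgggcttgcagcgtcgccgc
Ect2, chr3:27153805-27153954, minus strand: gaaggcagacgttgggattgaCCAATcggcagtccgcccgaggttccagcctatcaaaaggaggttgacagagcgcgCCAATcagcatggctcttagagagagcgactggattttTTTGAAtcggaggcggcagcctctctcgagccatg
Kif15, chr9:122950981-122951130, plus strand: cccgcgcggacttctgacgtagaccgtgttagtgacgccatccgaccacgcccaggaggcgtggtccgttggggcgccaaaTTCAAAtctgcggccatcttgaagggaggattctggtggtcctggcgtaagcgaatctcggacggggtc
Top2a, chr11:99024140-99024289, minus strand: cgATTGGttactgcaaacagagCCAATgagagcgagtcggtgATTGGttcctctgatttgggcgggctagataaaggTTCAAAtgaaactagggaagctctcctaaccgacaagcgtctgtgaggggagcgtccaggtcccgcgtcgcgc
Mki67, chr7:135716330-135716479, minus strand: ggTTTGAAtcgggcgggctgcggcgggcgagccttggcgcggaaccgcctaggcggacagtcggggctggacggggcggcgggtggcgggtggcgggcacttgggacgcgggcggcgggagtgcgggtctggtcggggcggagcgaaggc

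In Plk1 the CCAAT box begins 14 bases before the start and the CHR letters at base 31 of the transcript. The same order held in Kif23, at 7 bases before the start and base 3 of the transcript. Ect2 has CCAAT boxes 79 and 23 bases before the start and CHR letters at base 16, for the first of its windows in the table. Kif15 has CHR letters 19 bases before the start and no CCAAT in its window. Top2a has CCAAT letters 98, 78 and 58 bases before the start and CHR letters 23 bases before it. In Mki67 the stretch shown holds CHR letters 98 bases before the start, and its CCAAT letters lie further upstream. A match is a run of letters and not a bound site.

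**Figure D1:**
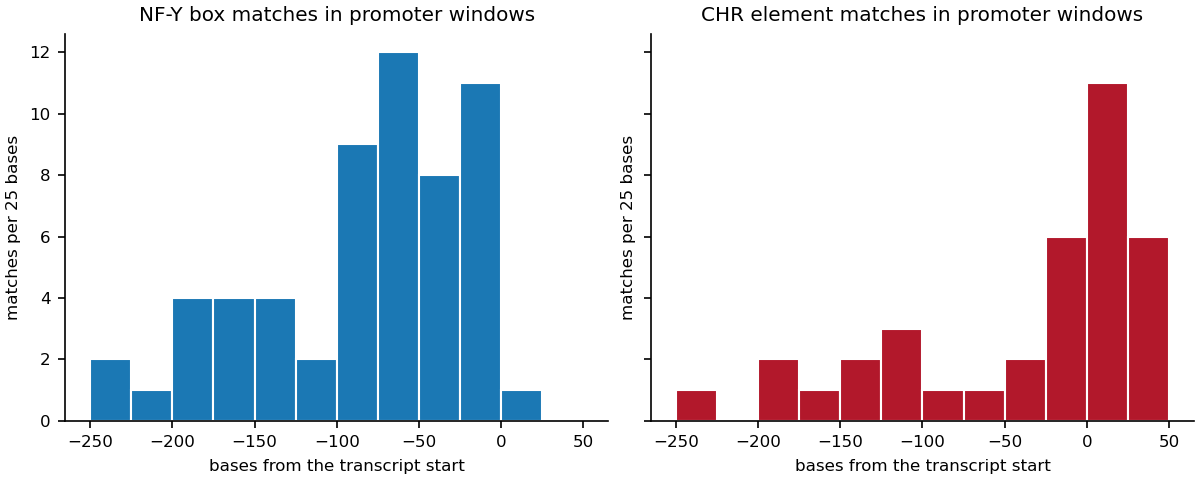
Positions of motif matches in the RefSeq promoter windows of the members, counted per 25 bases; the horizontal axis is the distance in bases from the transcript start and the vertical axis the number of matches, with the CCAAT box, bound by NF-Y, on the left and the CHR on the right, using 1 window a gene. CCAAT matches lie mostly in the 100 bases before the start, and CHR matches cluster within 50 bases of it.

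Few reads came from these genes. They took 101 and 508 counts in the combination libraries, 1532 and 1325 with JQ1, 4026 and 1264 with anti-PD-1 and 2401 and 3649 in vehicle. In CPM, the usual count unit scaled by library size and TMM factor, the sum over the 38 was 42.5 and 83.7 in the combination, 161 and 116 with JQ1, 281 and 119 with anti-PD-1 and 183 and 209 in vehicle. Both combination libraries lay under every other library. The JQ1 libraries lay under both vehicle libraries, while the anti-PD-1 libraries lay on either side of vehicle, 1 the highest of the 8. Group means were 63.1 ± 29.1 CPM in the combination, 138 ± 31.9 with JQ1, 200 ± 115 with anti-PD-1 and 196 ± 18.4 in vehicle (SD, n = 2 each). Without Top2a and Kif23, the members with the most counts, they were 49.5 ± 23.5, 88.4 ± 17.3, 129 ± 74.0 and 124 ± 16.4 CPM in the same order.

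**Figure D2:**
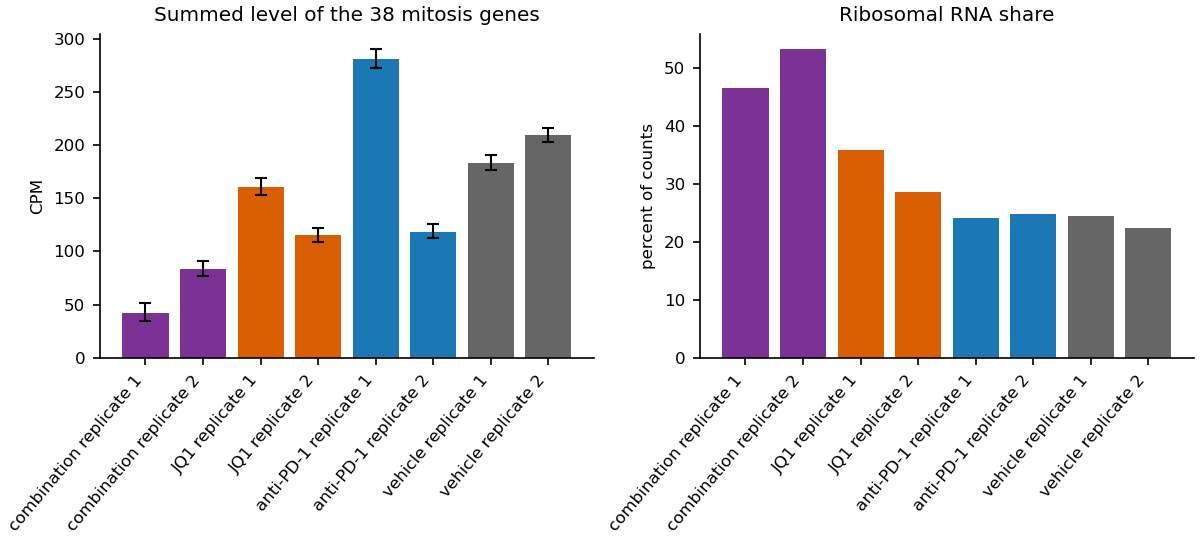
Left, summed level of the 38 mitosis genes in CPM in each library, with 95% exact Poisson intervals that cover counting error only; right, ribosomal RNA as a percent of all counts in the same libraries. The combination libraries have the lowest sums, 42.5 and 83.7 CPM, and the highest ribosomal RNA shares, 46.6% and 53.2%.

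Depth and library make-up differed in the same direction. Total counts were 2719816 and 9034331 in the combination and 8977259 to 15224108 in the other 6 libraries, so that 1 read in combination replicate 1 is worth 0.421 CPM. Of the 38 genes, 13 had no read in combination replicate 1, 3 in combination replicate 2, 2 in anti-PD-1 replicate 2 and 0 in the others. Ribosomal RNA was counted as the sum of the symbols Gm42418, Gm26917, AY036118, CT010467.1, mt-Rnr1 and mt-Rnr2. It took 46.6% and 53.2% of counts in the combination, 35.7% and 28.5% with JQ1, 24.0% and 24.7% with anti-PD-1 and 24.4% and 22.4% in vehicle. With ribosomal RNA counts left out of the library size and no TMM factor, the sums in the same unit were 69.5 and 120 in the combination, 266 and 189 with JQ1, 408 and 163 with anti-PD-1 and 252 and 309 in vehicle, with the combination again below every other library. By Xist and Y-linked counts, combination replicate 1, JQ1 replicate 1 and anti-PD-1 replicate 2 are female and the rest male. Trp53 was at 2.10 to 4.63 CPM in the treated libraries and 1.99 and 2.75 CPM in vehicle. The alveolar lineage factor Nkx2-1 was present in every library, at 842 and 402 CPM in the combination, 1040 and 1200 with JQ1, 1660 and 1560 with anti-PD-1 and 2120 and 1730 in vehicle. Both combination libraries were the lowest of the 8, and Nkx2-1 fell in the combination against vehicle (log2 fold change −1.63, SE 0.34, adjusted p = 0.0327). Of the 10 lung tumour epithelial markers listed, 3 had negative fold changes there, Nkx2-1 among them, and 7 had positive ones.

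**Figure D3:**
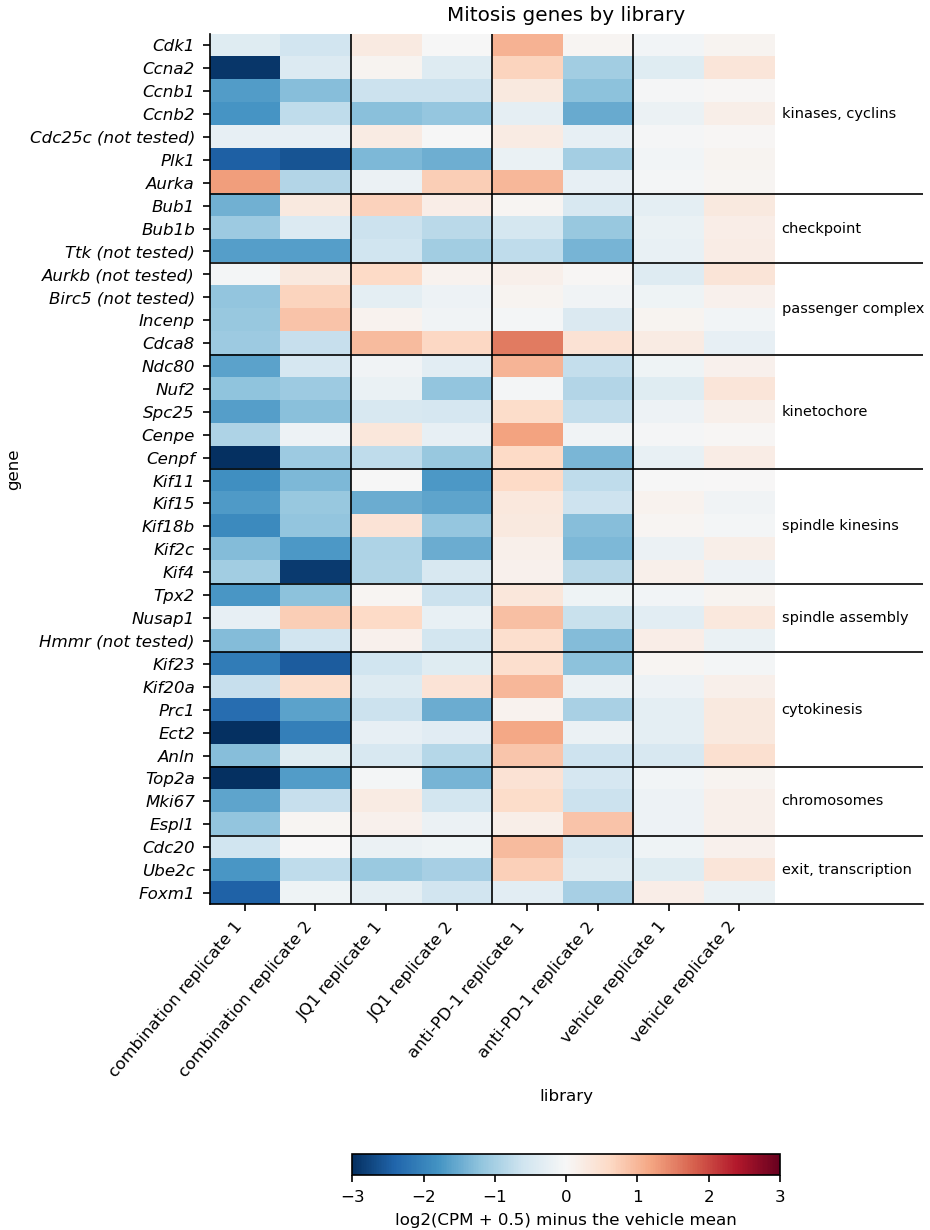
Level of each of the 38 genes in each library, as log2(CPM + 0.5) minus the mean of the 2 vehicle libraries, with colours ending at −3 and 3; rows are grouped by role and columns by treatment. The combination columns are mostly blue, with medians over the 38 of −1.51 and −0.73, and the anti-PD-1 columns run in opposite directions, with medians of 0.39 and −0.65.

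Of the treated groups, the combination alone had members that passed the test against vehicle. Plk1, Ect2 and Kif23 fell, no member rose, and these 3 of 33 tested members (9.09%) stand against 2.36% of all 14085 tested genes that fell, with 4.8% called in either direction (edgeR quasi-likelihood test, Benjamini-Hochberg adjusted p under 0.05). The median log2 fold change over the 33 was −1.63, with 29 negative, beside a median of 0.07 over all tested genes. Of the 33, 24 had both combination libraries below both vehicle libraries, which held for 29.1% of all genes, and 0 had both above, against 29.5%. Since a gene can pass the filter on low counts through the group where it is high, the same was read over all 38. There 27 had both combination libraries below both vehicle libraries and 0 had both above, and 32 had a lower mean CPM in the combination. The same shares over all genes without the filter were not computed. Of all tested genes, 47.6% had a negative fold change. An unadjusted p under 0.05 was reached by 11 members in this comparison, all lower, a share of 33.3% beside 13.1% of all genes. No member passed with a term for sex, where 339 of all 14085 genes were called, or for ribosomal RNA share, where 2 were. In limma voom 1 member, Kif4, was called, and 796 genes in all. Leaving out some single libraries also cost member calls. Calls over all genes fell with some libraries left out and rose with others. They rose without combination replicate 1, where Ect2 and Kif23 lost their calls. The median over the tested members was −1.44 with the sex term and −3.11 with the ribosomal RNA term. It was −1.30 without combination replicate 1, the smallest fall of any setting, and −2.34 without combination replicate 2. Without vehicle replicate 1 it was −1.72, and −1.44 without vehicle replicate 2.

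Among kinases and cyclins, Plk1 was the member that passed. It encodes Polo-like kinase 1, which acts at centrosomes, kinetochores and the midzone, and lies on chromosome 7 (122159439 to 122169873, plus strand, GRCm38). It was at 0.421 and 0.33 CPM in the combination, 1.47 and 1.31 with JQ1, 3.84 and 1.97 with anti-PD-1 and 4.2 and 4.82 in vehicle, an order in which the combination, JQ1 and anti-PD-1 do not overlap with vehicle. The log2 fold change in the combination against vehicle was −3.61 (SE 0.71, adjusted p = 0.0309). It rests on 3 counts against 139, a depth-scaled ratio of 0.078 (95% counting interval 0.0159 to 0.233). Exons of Gm44985 on the other strand overlap those of Plk1.

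The CDK1 module stood lower by less, or on too few reads to test well. Cdk1, the kinase that drives mitotic entry, was at 0.842 and 0.659 CPM in the combination, 1.57 and 1.22 with JQ1, 3.07 and 1.31 with anti-PD-1 and 1.15 and 1.32 in vehicle. The combination libraries were the lowest of the 8, at −0.76 on the log2 scale against vehicle (SE 0.76). Its cyclin partner Ccnb1 had 1 count in the combination libraries and 34 in vehicle, a ratio of 0.106 (0.00262 to 0.634), and Ccnb2 had 3 against 38, a ratio of 0.285 (0.0564 to 0.899). Ccnb1 was at 0 and 0.165 CPM in the combination, 0.524 and 0.523 with JQ1, 1.47 and 0.188 with anti-PD-1 and 1.07 and 1.15 in vehicle, so neither the combination nor the JQ1 group overlapped with vehicle. Ccnb2 was at 0 and 0.494 CPM in the combination, 0.21 and 0.262 with JQ1, 0.908 and 0.0939 with anti-PD-1 and 0.993 and 1.43 in vehicle, and every treated library lay under both vehicle libraries. Its log2 fold change with JQ1 alone, −2.31 (SE 1.11, adjusted p = 0.508), did not pass. Ccna2, cyclin A2, had no read in combination replicate 1 and 2.31 CPM in replicate 2, against 2.44 and 4.3 CPM in vehicle. Aurka, the centrosomal Aurora kinase, split the combination libraries, at 1.68 and 0 CPM, with 0.315 and 1.05 CPM with JQ1, 1.33 and 0.282 with anti-PD-1 and 0.382 and 0.459 in vehicle. It rests on 4 counts in the combination and 13 in vehicle. Cdc25c, the phosphatase that activates CDK1, had 0 counts in the combination and 3 in vehicle, too few for a fold.

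Checkpoint genes varied within groups. Bub1b, encoding the checkpoint protein BUBR1, was at 1.26 and 2.31 CPM in the combination, 1.89 and 1.66 with JQ1, 2.1 and 1.22 with anti-PD-1 and 2.75 and 3.84 in vehicle, so every treated library lay under both vehicle libraries. None of its fold changes passed, the one for the combination against vehicle being −0.80 (SE 0.57, adjusted p = 0.383). Bub1, a checkpoint kinase of the kinetochore, was at 0 and 1.15 CPM in the combination, 1.68 and 1.05 with JQ1, 0.908 and 0.47 with anti-PD-1 and 0.611 and 1.15 in vehicle, and its groups overlapped. Ttk, the kinase MPS1, had 0 counts in the combination and 34 in vehicle, at least 3.14-fold lower when 3 counts over the combination libraries are taken as the floor.

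The chromosomal passenger complex joins Aurora B with survivin, INCENP and borealin at centromeres and the midzone, and its members did not move as 1 group. Incenp, the scaffold, was at 2.95 and 13.2 CPM in the combination, 7.66 and 6.45 with JQ1, 6.78 and 5.07 with anti-PD-1 and 7.48 and 6.6 in vehicle. The combination libraries were thus the lowest and the highest of the 8 for this gene, and the log2 fold change of 0.28 (SE 0.54) did not pass. Cdca8, borealin, had 0 and 0.165 CPM in the combination, 1.57 and 1.13 with JQ1, 2.65 and 0.939 with anti-PD-1 and 0.764 and 0.402 in vehicle. It was the sole tested member with both JQ1 libraries above both vehicle libraries, and it had 1 count in the combination against 17 in vehicle, a ratio of 0.213 (0.00509 to 1.36). Exons of 9930104L06Rik on the other strand overlap its own. Aurkb, the kinase, was at 0.421 and 0.659 CPM in the combination, 0.944 and 0.523 with JQ1, 0.559 and 0.47 with anti-PD-1 and 0.229 and 0.746 in vehicle. Birc5, survivin, was at 0 and 1.32 CPM in the combination, 0.42 and 0.523 with JQ1, 0.699 and 0.563 with anti-PD-1 and 0.535 and 0.746 in vehicle. In both the combination libraries overlapped with vehicle, and neither had enough counts to test.

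All 5 kinetochore genes had negative fold changes in the combination against vehicle, from −3.13 to −0.51, and 0 passed. Cenpf, a large kinetochore and nuclear matrix protein, was at 0 and 1.81 CPM in the combination, 2.41 and 1.74 with JQ1, 6.99 and 1.41 with anti-PD-1 and 3.74 and 5.22 in vehicle (log2 fold change −1.95, SE 0.95). Spc25, a subunit of the NDC80 complex that grips microtubules, was at 0 and 0.165 CPM in the combination, 0.629 and 0.61 with JQ1, 1.82 and 0.47 with anti-PD-1 and 0.916 and 1.26 in vehicle. Its combination libraries were the lowest of the 8, with 1 count against 34 in vehicle, a ratio of 0.106 (0.00262 to 0.634). Its partners Ndc80 and Nuf2 were at −1.08 (SE 0.80) and −1.83 (SE 0.96). Cenpe, a kinesin of the kinetochore, was at −0.51 (SE 0.69).

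The 5 spindle kinesins had log2 fold changes from −2.56 to −1.63 in the combination against vehicle, none past the threshold. Kif11, the motor that pushes spindle poles apart, was at 1.26 and 1.98 CPM in the combination, 5.77 and 1.39 with JQ1, 8.94 and 3.19 with anti-PD-1 and 5.73 and 5.85 in vehicle. Its JQ1 libraries differ by more than the combination and vehicle groups do within themselves, and 1 overlaps with each. Kif15, another bipolar spindle motor on chromosome 9 (122951046 to 123018733, plus strand), was at 0.842 and 1.48 CPM in the combination, 1.05 and 0.959 with JQ1, 4.96 and 2.35 with anti-PD-1 and 4.2 and 3.56 in vehicle. Every library with JQ1 was below every library without it. Against vehicle, Kif15 was at −1.63 (SE 0.60, adjusted p = 0.122) in the combination and at −1.94 (SE 0.55, adjusted p = 0.443) with JQ1 alone. Kif2c, a kinesin that takes microtubules apart, was at 1.26 and 0.824 CPM in the combination against 3.36 and 4.42 CPM in vehicle, and Kif18b, which works with it on astral microtubules, had 2 counts against 42, a ratio of 0.172 (0.0202 to 0.662). Kif4, a chromosome-arm kinesin, was at 7.15 and 1.65 CPM in the combination against 17.2 and 13.7 CPM in vehicle, though exons of Pdzd11 on the other strand overlap its own. Among spindle assembly factors, Tpx2, the activator of Aurora A, was at 0.421 and 0.824 CPM in the combination against 2.44 and 2.75 CPM in vehicle (adjusted p = 0.107). Nusap1, which bundles microtubules, was at 0.421 and 1.32 CPM in the combination, 1.15 and 0.436 with JQ1, 1.54 and 0.188 with anti-PD-1 and 0.382 and 0.861 in vehicle, with every group overlapping. Hmmr was too low to test, with 2 counts against 22 and a ratio of 0.329 (0.0375 to 1.34).

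Cytokinesis genes held both other calls. Kif23, the kinesin of the centralspindlin complex that builds the midzone, lies on chromosome 9 (61915905 to 61946774, minus strand). It was at 6.73 and 4.94 CPM in the combination, 19.9 and 23.7 with JQ1, 43.0 and 12.8 with anti-PD-1 and 31.6 and 29.3 in vehicle, and it fell by 2.42 on the log2 scale in the combination against vehicle (SE 0.54, adjusted p = 0.0383). Ect2, the RhoA exchange factor that centralspindlin recruits, lies on chromosome 3 (27097222 to 27153878, minus strand). Its levels were 1.26 and 2.97 CPM in the combination, 11.6 and 10.8 with JQ1, 31.4 and 12.1 with anti-PD-1 and 11.1 and 17.2 in vehicle, and it fell by 2.61 on the log2 scale (SE 0.57, adjusted p = 0.0367). For both genes the combination libraries were below the other 6. With JQ1 alone, both libraries lay below both vehicle libraries for Kif23 and between the anti-PD-1 libraries. For Ect2 the JQ1 group overlapped with vehicle and lay below both anti-PD-1 libraries. Prc1, the microtubule bundler of the midzone, was at 0.842 and 1.65 CPM in the combination against 4.89 and 7.46 CPM in vehicle (log2 fold change −2.18, adjusted p = 0.073). Anln, anillin of the contractile ring, was at 1.26 and 2.8 against 2.52 and 5.45 CPM, and Kif20a, a midzone kinesin, at 0.842 and 2.64 against 1.45 and 1.89 CPM, both overlapping.

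**Figure D4:**
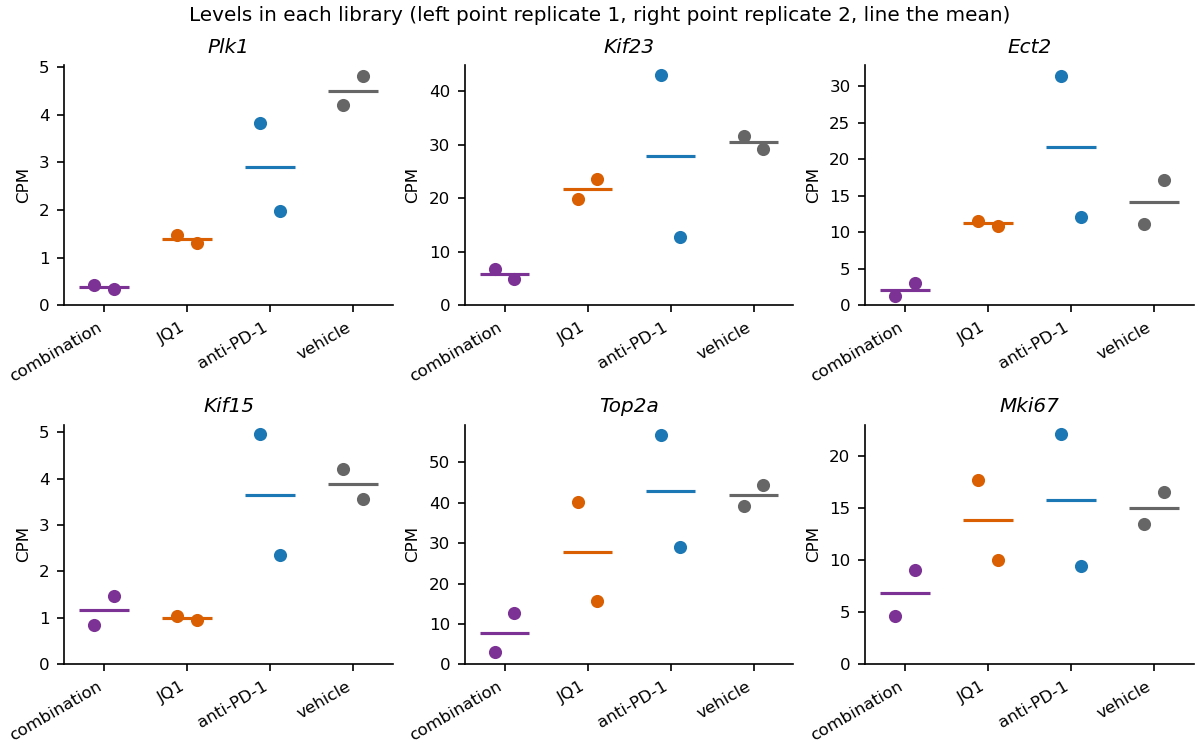
CPM of Plk1, Kif23, Ect2, Kif15, Top2a and Mki67 in each library, by treatment; in each group the left point is replicate 1, the right point replicate 2 and the line the mean, and each panel has its own vertical axis from 0. Both combination points lie below both vehicle points in every panel, and the anti-PD-1 points are far apart, for example 31.4 and 12.1 CPM for Ect2.

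Of the chromosome genes, Top2a, the topoisomerase that untangles sister chromatids, was at 2.95 and 12.7 CPM in the combination, 40.2 and 15.6 with JQ1, 56.7 and 29.1 with anti-PD-1 and 39.3 and 44.4 in vehicle. Its log2 fold change in the combination against vehicle, −2.31 (SE 0.65, adjusted p = 0.0715), is near those of the called genes and missed the threshold. Mki67, the coat protein of mitotic chromosomes and the usual proliferation marker, was at 4.63 and 9.06 CPM in the combination, 17.7 and 10 with JQ1, 22.1 and 9.39 with anti-PD-1 and 13.4 and 16.5 in vehicle. The combination libraries were the lowest of the 8, and the log2 fold change of −1.07 has a 95% interval of −2.2 to 0.06. Espl1, separase, was at 1.26 and 3.63 against 3.05 and 3.96 CPM and overlapped.

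Mitotic exit and the transcription of the set are represented by Cdc20, Ube2c and Foxm1. Ube2c, the E2 enzyme of the anaphase-promoting complex, was at 0.421 and 1.32 CPM in the combination, 0.944 and 1.05 with JQ1, 4.61 and 1.88 with anti-PD-1 and 1.91 and 3.5 in vehicle, again with every JQ1-treated library under every other. Exons of Tnnc2 on the other strand overlap it, as other genes overlap 12 of the 38 members, and since no source used here gives the use of strand in counting, such reads cannot be told apart. Cdc20, the activator of that complex, was at 1.68 and 2.8 CPM in the combination, 2.41 and 2.53 with JQ1, 5.87 and 1.88 with anti-PD-1 and 2.52 and 3.1 in vehicle. Foxm1, the transcription factor of G2 and M genes, was at 0 and 1.98 CPM in the combination, 1.68 and 1.31 with JQ1, 1.68 and 0.845 with anti-PD-1 and 2.6 and 1.84 in vehicle. Neither passed, at −0.26 (SE 0.62) for Cdc20 and −0.85 (SE 0.86) for Foxm1 in the combination against vehicle.

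Against anti-PD-1, which asks what JQ1 adds to the antibody, the combination was lower in the same 3 genes. Ect2 fell by 3.23 (SE 0.58, adjusted p = 0.0291), Kif23 by 2.29 (SE 0.54, adjusted p = 0.0468) and Plk1 by 2.99 (SE 0.72, adjusted p = 0.0474) on the log2 scale, with 0 rising. These are 9.09% of tested members, beside 2.08% of all genes that fell and 4.23% called in all. Medians were −1.55 over the members and 0.05 over all genes, and 18 members had both combination libraries lower, against 26.8% of genes. This comparison shares its combination libraries with the one against vehicle. Anti-PD-1 replicate 1 was the highest of the 8 libraries for 21 of the 38 members, and without it the median was −0.45. With each other library left out, the median lay between −2.40 and −1.27. Leaving out some single libraries cost member calls, while calls over all genes fell with some libraries left out and rose with others. They rose without combination replicate 1, where Kif23 and Plk1 lost their calls. A fit of only the 4 libraries compared called 0 members and 57 genes in all. With a ribosomal RNA term 0 members passed (1 gene in all), as in limma voom (511 genes in all). With a sex term (212 genes in all) or upper-quartile factors (561 genes in all) Ect2 was the only member to pass.

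Set against JQ1 alone, which asks what the antibody adds to JQ1, no member of the combination passed in edgeR, beside 0.0213% of all genes called in either direction and 0.0071% of all genes lower. An unadjusted p under 0.05 was reached by 6, all lower, against 7.3% of all genes. Their log2 fold changes were −3.42 for Cdca8, −2.27 for Ect2, −1.94 for Kif23, −1.92 for Plk1, −1.72 for Top2a and −1.60 for Tpx2, with the smallest adjusted p, 0.143, for Ect2. The median was −0.89 over the members and −0.01 over all genes. Both combination libraries were below both JQ1 libraries for 15 of 33, against 21.3% of all genes, and above them for 0, against 19.7%. DESeq2 called 3 members, Ect2, Kif23 and Top2a, and 419 of 26426 genes in all.

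JQ1 alone against vehicle gave 0 calls among the members in edgeR, as it did over all genes (0%). DESeq2 also called 0 members, and 81 of 26426 genes in all. At an unadjusted p under 0.05 in edgeR 3 members were lower (9.09%), against 4.52% of all genes: Kif15, Plk1 (−1.70, SE 0.51) and Kif2c (−1.46, SE 0.64), each with an adjusted p of 0.443 or above. The median was −0.48, beside 0.07 over all genes, and 14 members had both JQ1 libraries lower, a share of 42.4% against 22.9% of genes, with 1 higher against 26.3%. Over all 38, 28 had a lower mean CPM with JQ1, while 46.2% of all tested genes had a negative fold change. Mki67, at −0.11 with a 95% interval of −1.17 to 0.95, and Cdk1, at 0.17, were close to vehicle in the mean, and the interval for Mki67 takes in a fall of more than 1 on the log2 scale.

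Anti-PD-1 alone against vehicle also gave 0 calls, as over all genes (0%), 0 members lower at an unadjusted p under 0.05, against 0.788% of all genes, and a median of 0.04, beside 0.00 over all genes. DESeq2 called 0 members as well, and 11 of 26426 genes in all. Over all 38 genes, 20 had a higher mean CPM with anti-PD-1 and 18 a lower one, while 50.1% of all tested genes had a negative fold change. The replicates of this group went opposite ways: replicate 1, a male library, had a median of 0.39 over the 38 relative to the vehicle mean, and replicate 2, a female one, of −0.65. Both anti-PD-1 libraries were below vehicle for Bub1b, Ccnb2, Foxm1 and Plk1, against 16% of genes, and above it for Cdca8 and Espl1, against 14.4%, names chosen after their values were seen. The sum of the members was 281 CPM (95% counting interval 273 to 290.1) in replicate 1 and 119 CPM (112 to 125) in replicate 2, so the gap is wider than counting error.

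JQ1 over both backgrounds, the mean of the combination and JQ1 groups against the mean of anti-PD-1 and vehicle, used 4 libraries a side. Plk1 fell by 2.34 (SE 0.44, adjusted p = 0.022), Ect2 by 1.78 (SE 0.37, adjusted p = 0.0283), Kif15 by 1.75 (SE 0.41, adjusted p = 0.0346) and Kif23 by 1.39 (SE 0.36, adjusted p = 0.0441), and 0 members rose. That is 12.1% of tested members, beside 4.05% of all genes that fell and 8.28% called in all. The median was −1.19, against 0.06 over all genes, and 33 of the 38 had a lower mean CPM where JQ1 was given. Of all tested genes, 47.1% had a negative fold change there. Libraries of the sides did not overlap for Plk1, Kif15 and Ube2c, 3 of 33 (9.09%), a share like the 9.35% of all genes that were lower in this way. No member passed with a term for ribosomal RNA share, where 4 genes passed in all. With each library left out in turn, the median ran from −1.58 without combination replicate 2 to −0.70 without anti-PD-1 replicate 1. Leaving out some single libraries cost member calls. Calls over all genes rose without combination replicate 1, where Kif23 lost its call, and fell with any other library left out.

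**Figure D5:**
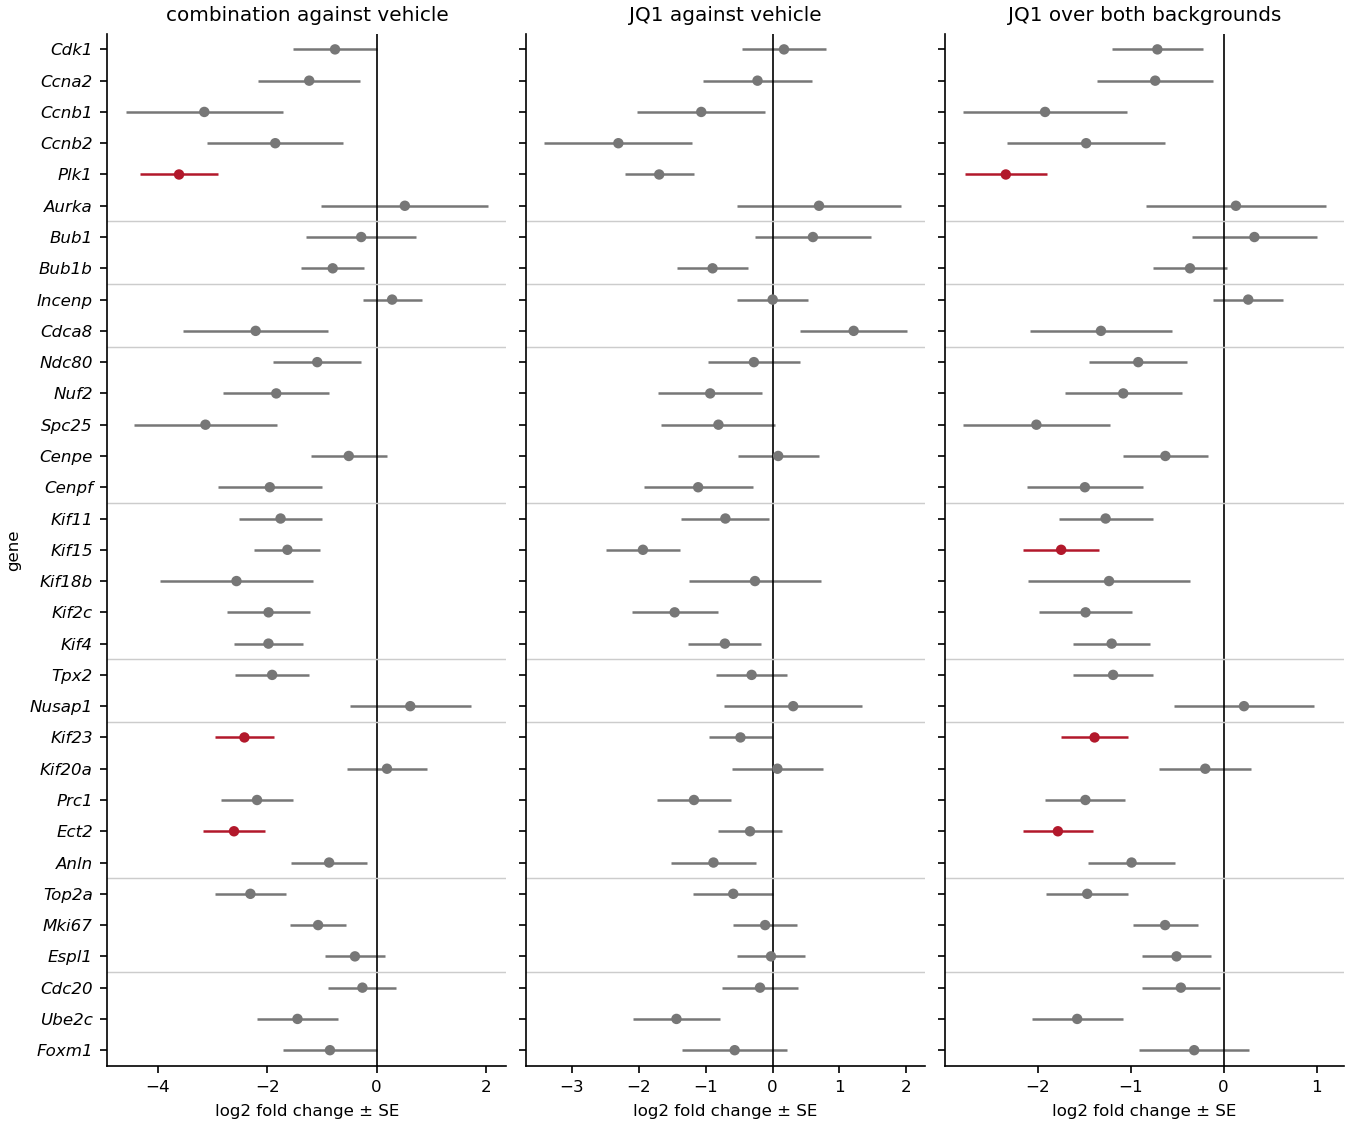
Log2 fold change with its standard error for the 33 tested members in the combination against vehicle, JQ1 against vehicle and JQ1 over both backgrounds, in the order of roles used in the text; red marks an adjusted p under 0.05. Plk1, Kif23 and Ect2 are red in the left panel, 0 in the middle panel and Plk1, Kif15, Kif23 and Ect2 in the right panel, and horizontal axes differ between panels.

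Whether the effect of JQ1 differed between the backgrounds was tested by the interaction, and no member passed, as over all genes (0%). Ect2 was at −0.34 with JQ1 alone and at −3.23 when JQ1 was added to the antibody, a difference of −2.89 (SE 0.74, unadjusted p = 0.0028, adjusted p = 0.745). Kif23 (−1.81) and Cdca8 (−5.06) were the other members with an unadjusted p under 0.05, each with an adjusted p of 0.745, and 3.57% of all genes were lower at that p. The median was −0.98, against −0.01 over all genes, and 0.11 without anti-PD-1 replicate 1. DESeq2 called 0 members, and 18 of 26426 genes in all. The antibody over both backgrounds gave 0 calls among members in edgeR and in DESeq2 (0.0142% of all genes in edgeR, 182 of 26426 in DESeq2). In edgeR, Kif23, Plk1 and Ect2 were under an unadjusted p of 0.05 at −1.03, −1.27 and −0.82, beside 5.27% of all genes that were lower at that p.

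Other genes of mitosis, 103 listed by known role of which 71 were tested, are given for context. In the combination against vehicle 2 fell and 0 rose, with a median of −0.60, and over all genes 2.36% fell and 2.44% rose, so the count is near the background. Ncapd2, a condensin subunit, fell by 1.70 (adjusted p = 0.0361), and Ube2s, the E2 enzyme that extends ubiquitin chains for the anaphase-promoting complex, fell by 1.5 (adjusted p = 0.0276). With JQ1 over both backgrounds Lin9, of the MuvB complex, fell with them and Zwint, a kinetochore protein, rose by 1.09 (adjusted p = 0.0365), to 25.7 and 35.1 CPM in the combination and 13.0 and 20.1 with JQ1, against 7.75 and 10.9 CPM with anti-PD-1 and 13.9 and 10.3 in vehicle. Of 40 tested DNA replication genes, 1 fell in the combination against vehicle, the helicase subunit Mcm2 (−2.76, adjusted p = 0.021), and 1 rose, the origin recognition subunit Orc6 (1.70, adjusted p = 0.0419), with a median of −0.76, and these counts too are near the shares over all genes. With JQ1 alone 0 replication genes passed in edgeR and none had an unadjusted p under 0.05, and their median was 0.44, against −0.48 for the mitosis genes. In the list of 8 cell cycle inhibitors and p53 targets, 0 passed in the combination against vehicle. An unadjusted p under 0.05 was reached by 5 of these 8, beside 3845 of all 14085 genes. Their fold changes were positive for 5 and negative for 3, with a median of 0.75. Cdkn1a, the CDK inhibitor p21, was at 4.63 and 70.0 CPM in the combination against 5.42 and 4.82 CPM in vehicle, high in 1 library.

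Some markers of the tumour epithelium and of other cells moved with the combination as well. Of 10 lung tumour epithelial markers, 7 had positive and 3 negative fold changes in the combination against vehicle, with a median of 0.47. Nkx2-1 fell and Napsa, a protease of alveolar cells, rose. An unadjusted p under 0.05 was reached by 5 of the 10, beside 3845 of all 14085 genes, and none of the 10 was at 0 in any library. Their sum was 7502 and 9630 CPM in the combination against 9755 and 6563 CPM in vehicle, and Lamp3 was at 87.5 and 46 against 245 and 188 CPM, with a fold change that did not pass. Neutrophil markers summed to 9.26 and 2.8 CPM in the combination against 1.68 and 1.32 CPM in vehicle, with 4 of 4 tested markers positive, a median of 1.65, none past the threshold, and Ly6g at 0 in 7 of the 8 libraries. Airway markers summed to 572 and 264 CPM in the combination, 436 and 170 with JQ1, 109 and 44.4 with anti-PD-1 and 36.5 and 10.2 in vehicle. In the combination against vehicle 5 of 5 had positive fold changes and 1, Scgb1a1, rose, with Bpifa1 at 0 in combination replicate 2 and anti-PD-1 replicate 2. Endothelial markers summed to 128 and 116 CPM in the combination against 45.2 and 71.3 CPM in vehicle, with 6 of 6 positive, 1 (Pecam1) risen and none at 0. Fibroblast markers were at 448 and 456 against 1271 and 1034 CPM, where Col1a1 fell, Dcn and Pdgfra rose and none was at 0. Striated muscle markers, nearly all from Myh6, which fell, were at 138 and 67.1 against 530.4 and 385 CPM, with Myl7 at 0 in both combination libraries. Of 6 macrophage markers, 3 had positive and 3 negative fold changes in the combination against vehicle, with a median of −0.13 and 0 under an unadjusted p of 0.05. Of 4 erythroid markers 3 were negative and 1 positive, and of 4 B cell markers 1 was tested. None of the macrophage, erythroid or B cell markers passed. T cell markers had too few counts to test, at 0.421 and 0.659 CPM in the combination against 0.229 and 1.03 CPM in vehicle, with Cd3d and Cd3g at 0 in all 4 of these libraries. The part of these cells, of depth, of sex and of ribosomal RNA share in the fall of Plk1, Ect2 and Kif23 was not tested beyond a few fits. These had a term for sex or for ribosomal RNA share, ribosomal RNA symbols removed, or counts thinned to the smallest library. Ribosomal RNA share was higher in both combination libraries than in every other library. With 2 libraries a group, the fit with that term cannot tell share and treatment apart. In the combination against vehicle, all 3 kept their direction in the fits with a term and did not pass. With ribosomal RNA symbols removed all 3 passed (652 genes in all). After thinning, 0 of 18 tested members passed (156 genes in all).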

How the data were processed

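RNA from tumour nodules was made into libraries by RNA Access, an exome-capture method, per the labels' protocols, so levels of different genes also depend on their probes. The authors deposited raw read counts per gene symbol, and a second table of normalized signal values, which the authors made by dividing the counts by 1 factor per library. The submitters' processing notes name bcl2fastq, STAR, featureCounts, DESeq2, mm10 and GRCm38. No source used here gives the annotation or the strand setting. From the raw counts, 14085 genes kept by filterByExpr (minimum count 10) were fitted with edgeR 4.0.16 in R 4.3.3: TMM factors, 1 fit of all 8 libraries, a robust quasi-likelihood test, 8 contrasts, Benjamini-Hochberg adjustment over all 14085 genes and a threshold of 0.05. The biological coefficient of variation was 0.332 and the residual degrees of freedom were 4. CPM are counts scaled by the library's total over kept genes times its TMM factor. SE is the log2 fold change divided by the square root of F, and depth ratios carry exact 95% intervals for counting error only, with 3 counts as the floor for 0.

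Alternatives were other scalings, filters, terms for sex and ribosomal RNA share, removal of ribosomal RNA symbols and thinning to the smallest library. Others were fits of only the compared libraries, limma voom (3.58.1), DESeq2 (1.42.0), and leaving out each library. When reads were recovered from the normalized table, and 100% of values came out whole within 0.05, the edgeR test made the same calls, 676 in the combination against vehicle, an alternative chosen after seeing the data. The edgeR script was tested on simulated data. The labels do not say whether the libraries of a group are from separate animals. The sex calls from Xist and Y-linked counts differ within the combination, JQ1 and anti-PD-1 groups, so those libraries are from different animals. Both vehicle libraries are male, and the sex calls cannot tell whether they are from separate animals. The p-values measure the spread between these libraries, which in the vehicle group may be technical. The 38 genes and the lists were chosen with earlier results of these data known. Per-library levels were printed for a fixed set covering the roles, every member that passed in any contrast, and the 3 with the largest and smallest fold change against vehicle or with JQ1 over both backgrounds.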

Additional observations from a re-analysis of the deposited data

How the results depend on the processing

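The members called were 3 in the combination against vehicle, 3 in the combination against anti-PD-1 and 4 with JQ1 over both backgrounds. In that order they numbered 8, 9 and 11 with no filter on low counts, where calls over all genes also went up (1992, 1920 and 2527, against 676, 596 and 1166), 0, 1 and 2 with a sex term (339, 212 and 877 genes in all), 0, 0 and 0 with a ribosomal RNA term (2, 1 and 4 genes in all) or after thinning to the smallest library (18 members tested; 156, 96 and 222 genes in all), and 6, 5 and 7 in DESeq2 (1648, 1576 and 2091 genes in all). limma voom called 1 and 0 in the first and second of these (796 and 511 genes in all). Upper-quartile factors gave 1 in the combination against anti-PD-1 (561 genes in all), and a fit of only the compared libraries gave 0 there (57 genes in all). A mean count of at least 50 (7 members tested) gave 1 with JQ1 over both backgrounds (1151 genes in all). In the combination against JQ1, where edgeR called 0, DESeq2 and no filter each called 3 (419 and 672 genes in all). With no filter, 2 passed for anti-PD-1 over both backgrounds (Kif23, Top2a) and 1 in the interaction (Ect2), beside 426 and 138 genes in all. Leaving out each library in turn leaves 1 library in a group that is assumed to vary like the others. The members called, like the genes called in all, then varied with the library left out. No called member changed direction where it was tested, which was 19 of 21 settings for Plk1 in each comparison of the combination, 18 of 20 for Plk1 and 19 of 20 for Kif15 with JQ1 over both backgrounds, and every setting for Ect2 and Kif23. Sizes did change between settings. In the combination against vehicle log2 fold changes ran from −2.78 to −0.96 for Kif23, −3.50 to −1.86 for Ect2 and −3.74 to −3.26 for Plk1. With JQ1 over both backgrounds they ran from −1.71 to −0.45 for Kif23 and −2.23 to −1.37 for Ect2. There Kif15 ran from −2.50 to −1.22 and Plk1 from −2.55 to −2.07. The cause of these changes was not tested, apart from the fewer genes tested where given. No paired analysis was possible because the labels give the groups no shared replicate numbers. Depth limits all of this: combination replicate 1 holds 101 counts of the 38 genes, and with 2 libraries a group a p above the threshold does not show that levels were alike.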
